A study of Mus musculus with 16 samples.

Results

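Gas1 and the hedgehog pathway were followed through 9 genes, chosen from the count table by symbol: the co-receptors Gas1, Cdon and Boc, the receptor Ptch1, the ligand decoy Hhip, the transducer Smo and the transcription factors Gli1, Gli2 and Gli3. They are 9 of 24411 genes in the table, and all 9 had counts high enough to be tested in each of 5 comparisons. The 9 genes were chosen with earlier results of the same libraries known, and all 4 groups entered that choice. Their levels and fold changes are therefore given as a description, without p-values or calls, and nothing is read from how many of them separate in a comparison. Test results are given for other genes, apart from counts of calls that show the effect of processing settings at the end.

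The 16 RNA-seq libraries came from muscle stem cells (MuSCs) of mouse skeletal muscle, with 4 libraries per group. In the TRF2 MuSC-cKO (cKO) mice, floxed Terf2, which encodes the telomere-binding shelterin protein TRF2, is deleted by a tamoxifen-activated Cre recombinase expressed from the Pax7 locus, so that deletion is limited to cells that express Pax7 when the drug is given to young adult mice. The sample labels call the other genotype wild type, do not say whether those mice carried Cre or received tamoxifen, and give no ages. Each genotype was studied in uninjured muscle and 3 days after injection of 10 µl of notexin, a snake toxin that destroys myofibers, into the tibialis anterior (3 DPI). Cells were sorted as negative for CD45, CD31, CD11b and Sca1 and positive for α7-integrin together with VCAM or CD34. The labels also carry codes of unstated meaning. None is shared between genotypes in uninjured muscle, where code and genotype cannot be told apart. At 3 DPI, 2 libraries of each genotype share a code. Some codes occur only in uninjured muscle or only at 3 DPI, so code and injury are also partly confounded. The labels do not say whether each library came from a separate animal, so p-values measure the spread between these libraries.

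Libraries held 620506 to 1351130 estimated counts, and 15 of them had counts in 19996 to 21879 genes. The library labelled cKO 3 DPI replicate 3 stood apart with counts in 15387 genes, and results that it moves are also given without it. Terf2 ran from 66.3 to 94.5 CPM (counts scaled to the library total after adjustment by a TMM factor) in uninjured controls and from 27.2 to 58.7 CPM in uninjured cKO libraries, without overlap, but its difference was not called (log2 fold change -0.62 ± 0.27 (SE), adjusted p = 0.199, edgeR quasi-likelihood test). At 3 DPI, Terf2 did not go with the labels: it ran from 35.5 to 48.6 CPM in controls and from 21.9 to 89.7 CPM in the libraries labelled cKO (log2 fold change 0.44 ± 0.42, adjusted p = 0.755, edgeR). A count over the gene also includes reads outside the deleted exons. Pax7, which defines MuSCs, was present in every group, at a mean of 1217 ± 313 CPM (SD, n = 4) in uninjured controls and 86.6 ± 50.6 CPM in the libraries labelled cKO at 3 DPI.

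Hedgehog ligands are secreted proteins that bind PTCH1, a membrane protein that keeps the transducer SMO inactive. Ligand binding frees SMO, which acts through the primary cilium to turn GLI2 and GLI3 from repressors into activators of transcription. The activated GLI proteins induce Gli1, Ptch1 and Hhip, so that these genes serve as transcriptional readouts of the pathway and, through PTCH1 and HHIP, as its negative feedback. GAS1, CDON and BOC are cell surface proteins that bind the ligand together with PTCH1 and strengthen the signal. GAS1 is anchored to the membrane by a lipid, resembles the GFRα co-receptors of the receptor tyrosine kinase RET and was named for its expression in growth-arrested cells. CDON and BOC are immunoglobulin superfamily proteins that also promote myogenic differentiation by way of cadherins.

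On GRCm38 with GENCODE M21 annotation, Gas1 is a gene of 1 exon and 2961 bases at chr13:60174405-60177365 on the minus strand. Its exon overlaps an opposite-strand gene, Gm48488, by 589 bases. The library kit keeps strand, but whether the counting used it is not given in the sources used here. Cdon lies at chr9:35421128-35507652 (plus strand), Boc at chr16:44485049-44558897 (minus), Ptch1 at chr13:63508328-63573598 (minus), Hhip at chr8:79965851-80058006 (minus) and Smo at chr6:29735503-29761365 (plus). Gli1 lies at chr10:127329882-127341974 (minus), Gli2 at chr1:118834132-119053619 (minus) and Gli3 at chr13:15463235-15730026 (plus). On the opposite strand, Gli1 shares 265 exonic bases with Gm47200 and 62 with Arhgap9, Gli3 shares 188 with Gm6556 and Hhip shares 175 with Gm27820.

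Because TRF2 is also studied for its binding to G-quadruplexes, four-stranded structures that form in guanine-rich DNA, the promoter windows of the 9 genes were searched for runs of G. RefSeq windows from 250 bases before to 50 bases after the start (GRCm38.p6) were found for 7 genes, all but Boc and Gli1. The pattern of 4 runs of at least 3 G with 1 to 7 bases between runs, on either strand, counting a long unbroken run as several runs, occurred in the windows of Ptch1, Hhip, Smo and Gli3, which is 4 of 7, and in 18.6% of 32851 mouse promoter windows. The Hhip match is a pair of long C runs. The 4 matching windows held 67.7 to 76.3% G and C, and those of Gas1, Cdon and Gli2 held 44.7 to 67.3%. The median over all windows was 52.7%, so the shares compare windows of unlike base content. The Cdon, Ptch1 and Gli3 windows lie inside the GENCODE genes given above, downstream of the GENCODE gene starts. The GLI binding sequence GACCACCCA, or its reverse complement TGGGTGGTC, occurred in 0 of 7 windows and in 0.253% of all windows. A match is a description of the letters only. The 250 bases upstream of the RefSeq start are shown for Gas1, the gene of largest change without the pattern, at chr13:60177536-60177785 on the minus strand, and for Smo, which has the pattern (capitals), at chr6:29735247-29735496 on the plus strand, both 5′ to 3′. The RefSeq starts of Gas1 and Smo lie 5′ of the GENCODE gene starts given above.
Gas1: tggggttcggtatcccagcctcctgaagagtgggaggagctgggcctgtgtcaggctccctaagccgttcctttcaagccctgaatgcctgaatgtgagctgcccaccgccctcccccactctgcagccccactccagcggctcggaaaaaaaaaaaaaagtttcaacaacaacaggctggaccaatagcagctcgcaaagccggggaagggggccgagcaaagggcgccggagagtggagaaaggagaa
Smo: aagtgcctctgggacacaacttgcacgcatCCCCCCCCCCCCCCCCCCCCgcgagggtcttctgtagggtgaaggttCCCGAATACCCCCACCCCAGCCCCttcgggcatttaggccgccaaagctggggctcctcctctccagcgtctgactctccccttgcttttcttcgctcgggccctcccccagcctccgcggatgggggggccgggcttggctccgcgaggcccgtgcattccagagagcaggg

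Gas1 was the most abundant of the 9 genes in uninjured control MuSCs. On the scale of TPM, which divides by transcript length as well as by the library total and so allows genes to be compared, it averaged 671 ± 167 TPM (SD, n = 4), followed by Cdon at 247 ± 31.7 TPM, and the libraries of these neighbours did not overlap. Gli2 (76.8 ± 4.52 TPM), Smo (63.7 ± 11.5 TPM), Boc (53.9 ± 9.20 TPM), Gli1 (51.6 ± 13.3 TPM) and Ptch1 (44.7 ± 14.2 TPM) formed a middle group in which each neighbour overlapped the next. Gli3 (16.8 ± 3.16 TPM) and Hhip (11.5 ± 4.47 TPM) were lowest. Gas1, Cdon and Hhip also ranked 1, 2 and 9 in uninjured cKO and in control 3 DPI MuSCs. In the libraries labelled cKO at 3 DPI, Gli1 had the highest mean (39.5 ± 17.2 TPM), Gas1 came next (26.1 ± 8.49 TPM), and every neighbour in the order overlapped the next.

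**Figure D1:**
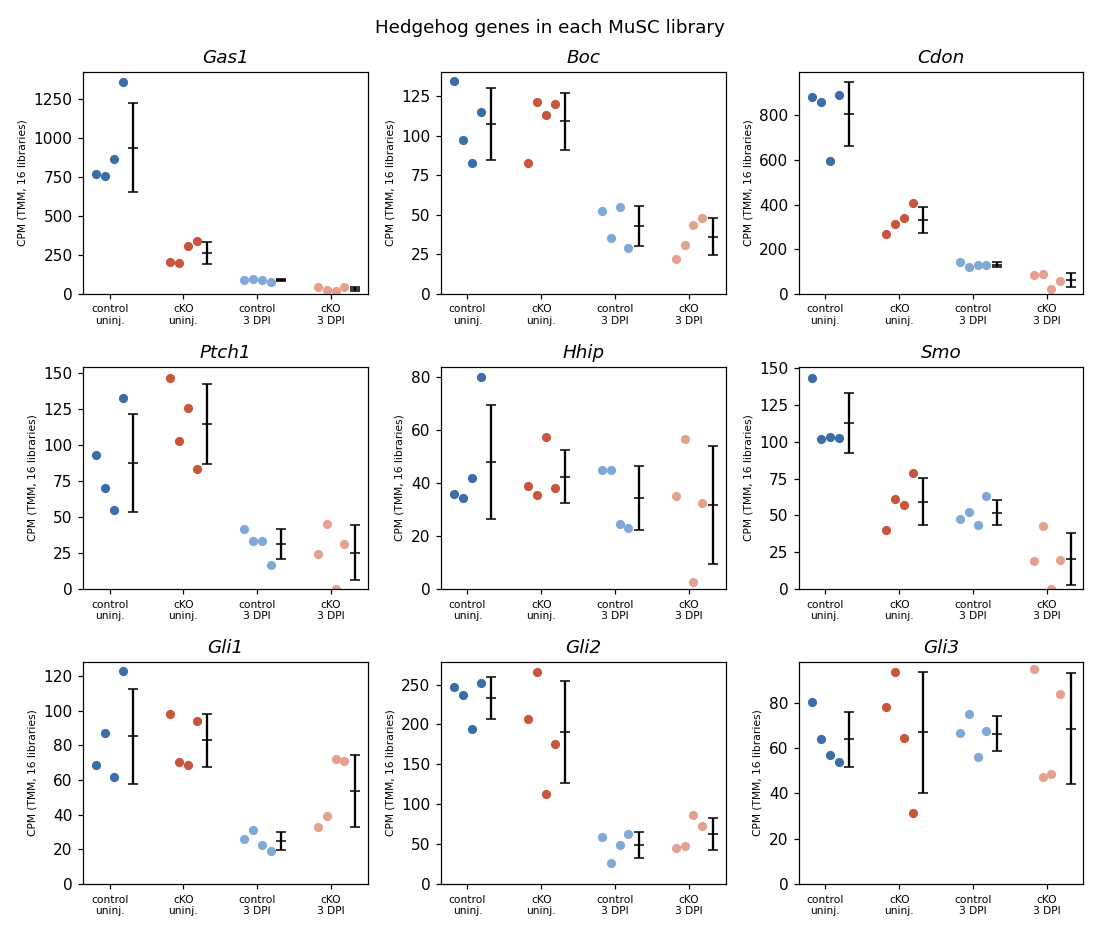
CPM (y axis, each panel starting at 0) of the 9 hedgehog genes in every library, with points for libraries, bars for the mean ± SD of 4 libraries, and groups along the x axis. Gas1 fell from a mean of 939 CPM in uninjured controls to 31.4 CPM in the libraries labelled cKO at 3 DPI, whereas Gli3 stayed between group means of 63.7 and 68.5 CPM.

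The genotypes were first compared in uninjured muscle. Gas1 measured 768, 759, 869 and 1360 CPM in controls and 207, 196, 305 and 339 CPM in cKO libraries. All 4 cKO libraries lay below all 4 controls, and the fitted difference was -1.72 ± 0.22 on the log2 scale, a 3.29-fold lower level. Cdon measured 882, 861, 594 and 890 CPM in controls and 269, 313, 338 and 407 CPM in cKO libraries, again without overlap (log2 fold change -1.16 ± 0.20). Smo, the transducer, also separated the genotypes, at 144, 102, 103 and 102 CPM against 40.2, 61.3, 57.3 and 79.0 CPM (log2 fold change -0.81 ± 0.24). These 3 genes were the members whose groups did not overlap, all lower in cKO, where 12.6% of the genes tested separated without overlap, 9.18% lower and 3.43% higher.

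A gene was called where its edgeR adjusted p was under 0.02 and its fold change over 1.5. By that rule 3.22% of 14048 genes were called between uninjured genotypes, 2.63% lower and 0.584% higher in cKO. The excess of lower calls was absent with limma's robust fit, which called 142 genes lower and 157 higher. The rule is applied below to genes other than the 9. The other co-receptor, Boc, overlapped between genotypes, at 107 ± 22.6 CPM in controls and 109.3 ± 18.03 CPM in cKO (log2 fold change 0.15 ± 0.22). The median log2 fold change was -0.05 over the 9 genes and 0.06 over all genes tested.

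The genes that report hedgehog output overlapped between uninjured genotypes. Gli1, whose transcription depends on active GLI proteins, measured 68.8, 87.3, 61.6 and 123 CPM in uninjured controls and 98.2, 70.6, 68.7 and 94.0 CPM in cKO libraries. The genotypes overlapped, with a log2 fold change of 0.09 ± 0.25. Ptch1 measured 92.9, 70.2, 54.7 and 133 CPM in controls and 147, 103, 126 and 83.1 CPM in cKO libraries (0.52 ± 0.24), and Hhip differed by -0.05 ± 0.32, both with overlapping groups. Gli2 (-0.16 ± 0.21) and Gli3 (0.20 ± 0.28) also overlapped.

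MuSC markers moved in the same direction as Gas1 and Cdon. The summed level of 9 MuSC markers ran from 3401 to 5221 CPM in uninjured controls and from 1866 to 2825 CPM in cKO libraries, none of the 9 was at 0 throughout a group, and 5 of them were called lower (Vcam1 -0.78, Itga7 -1.21, Calcr -1.32, Sdc4 -0.88 and Cdh15 -0.94 on the log2 scale, adjusted p = 0.0124, 0.000105, 0.000307, 0.00309 and 0.00866 by edgeR). In bulk libraries, fewer MuSCs among the sorted cells, less RNA per MuSC and lower levels of these markers within each MuSC cannot be told apart. Of the markers of other cells, Dcn (1.20, adjusted p = 0.00188), Rgs5 (1.33, 0.0144) and Cspg4 (0.88, 0.0172) were called higher and Dpt (-1.65, 4.82e-06) and Col3a1 (-2.12, 2.93e-08) lower. The summed fibroadipogenic markers ran from 4728 to 7503 CPM in controls and from 1308 to 2681 CPM in cKO, but Col3a1 alone averaged 5313 and 1114 CPM of that sum, and 5 of the 7 markers tested lay above 0 (median log2 fold change 0.53). The summed Schwann markers (248 to 329 against 362 to 505 CPM) and myeloid markers (64.4 to 80.2 against 102 to 162 CPM) were higher in cKO without overlap, with no marker of either list called. The part of these shifts in the hedgehog values was not tested.

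The members were therefore also set against the summed MuSC markers of the same library, a scale chosen after the data were seen. Per 100 CPM of MuSC markers, Gas1 measured 16.7 to 26.1 CPM in uninjured controls and 7.77 to 12.5 CPM in cKO libraries, still without overlap and lower by 0.99 on the log2 scale. Cdon measured 17.0 to 20.1 against 12.4 to 14.4 CPM, a log2 difference of -0.42 without overlap. Smo overlapped on this scale (1.96 to 3.13 against 2.16 to 2.80 CPM). Boc, Ptch1 and Gli1, which overlapped in CPM, were higher in cKO without overlap per 100 CPM of MuSC markers, with log2 ratios of 0.88, 1.36 and 0.88. Because the marker sum itself was lower in cKO, this scale raised genes in general: 27.3% of the genes tested were higher and 0.448% lower without overlap on it, and the median log2 ratio of all genes was 0.79.

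**Figure D2:**
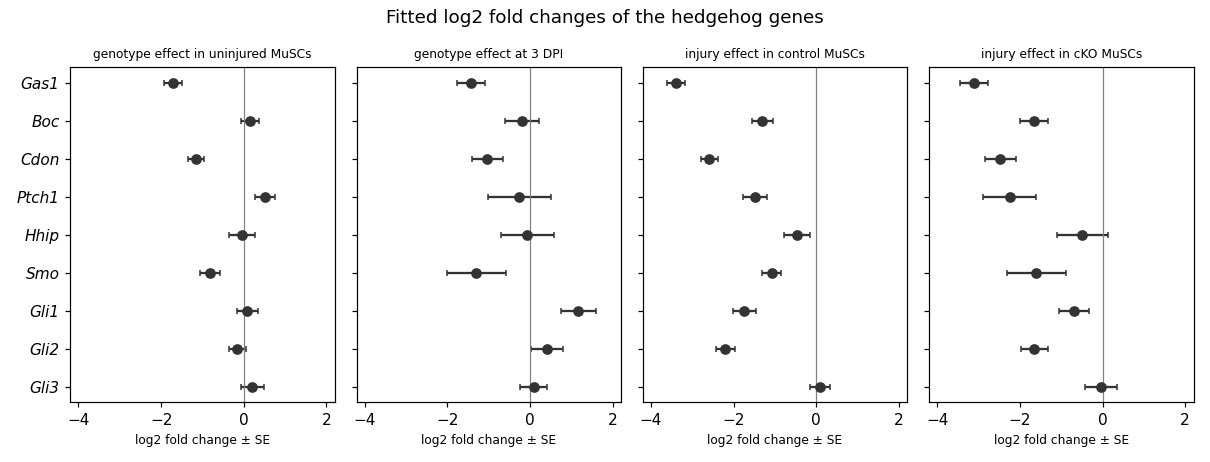
Fitted log2 fold changes of the 9 genes (x axis, bars ± SE) in 4 comparisons, with no test shown. Gas1 and Cdon lay below 0 in every panel, and Gli1 lay above 0 (1.17) only in the 3 DPI genotype panel beyond its SE.

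At 3 DPI, the same co-receptors were lower in the libraries labelled cKO, in libraries that are more variable (biological coefficient of variation 0.495, against 0.297 in uninjured MuSCs). Gas1 measured 88.0, 97.3, 85.6 and 78.2 CPM in controls and 42.1, 21.9, 19.8 and 41.9 CPM in the libraries labelled cKO. The groups did not overlap, and the log2 fold change was -1.43 ± 0.35. Cdon measured 142, 119, 131 and 131 CPM against 84.1, 87.7, 19.8 and 57.1 CPM (-1.03 ± 0.37), and Smo 47.9, 52.5, 43.3 and 63.4 CPM against 18.7, 42.7, 0 and 19.8 CPM (-1.31 ± 0.71). Among the libraries that share a code, 2 of each genotype, the differences were -1.52 ± 0.42 for Gas1, -0.59 ± 0.32 for Cdon and -0.70 ± 0.49 for Smo. The Smo value of 0 came from replicate 3, where 3 counts would have been 3.72 CPM, and without that library the Smo difference was -0.91 ± 0.38, that of Cdon -0.75 ± 0.25 and that of Gas1 -1.28 ± 0.31.

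Gli1 went the other way. It measured 26.3, 31.1, 22.6 and 18.9 CPM in controls at 3 DPI and 32.7, 39.2, 71.9 and 71.1 CPM in the libraries labelled cKO, all of which lay above all controls (log2 fold change 1.17 ± 0.42). In the 2 libraries per genotype that share a code in their labels, the difference was 0.33 ± 0.48, and without replicate 3 of the cKO label it was 0.97 ± 0.38. Gli2, at 49.2 ± 16.3 against 62.96 ± 20.01 CPM (0.41 ± 0.38), Gli3 (0.09 ± 0.32), Boc (-0.19 ± 0.42), Ptch1 (-0.26 ± 0.77) and Hhip (-0.07 ± 0.64) overlapped between genotypes. Without replicate 3, in which Ptch1 had no count and Hhip measured 2.48 CPM, Ptch1 was at 0.15 ± 0.41 and Hhip at 0.31 ± 0.38.

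Thus 3 members were lower and 1 was higher without overlap at 3 DPI, where 7.84% of 14559 genes separated without overlap, 4.87% lower and 2.97% higher. The rule called 0% of all genes at 3 DPI, although 1362 genes had an unadjusted p under 0.05 by edgeR. With limma's robust fit 28 genes were called and with DESeq2 22. The summed MuSC markers ran from 758 to 1070 CPM in controls and from 357 to 572 CPM in the libraries labelled cKO, and the summed myeloid markers from 4815 to 6224 CPM and from 1936 to 5552 CPM (3990 to 5552 CPM without replicate 3). Their part in these differences was not tested. Per 100 CPM of MuSC markers, Gas1 overlapped between genotypes (7.31 to 11.6 against 3.76 to 11.8 CPM), as did Cdon and Smo, whereas Gli1 (1.77 to 3.46 against 6.85 to 19.9 CPM) and Gli2 (2.66 to 7.74 against 8.27 to 20.3 CPM) were higher without overlap in the libraries labelled cKO. On this scale 24.8% of all genes tested were higher and 0.0618% lower without overlap, with a median log2 ratio of 1.01.

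The difference between the genotype effects at 3 DPI and in uninjured MuSCs was fitted on all 16 libraries. It was 0.38 ± 0.39 for Gas1, 0.22 ± 0.41 for Cdon and -0.26 ± 0.43 for Boc on the log2 scale. Gli1 had the largest value, 1.16 ± 0.47. For this difference 0.0178% of 16822 genes were called.

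Injury was compared in control MuSCs, from uninjured muscle to 3 DPI. Gas1 went from 759 to 1360 CPM down to 78.2 to 97.3 CPM (-3.39 ± 0.22 on the log2 scale), a 10.4-fold lower level. Cdon went from 594 to 890 CPM down to 119 to 142 CPM (-2.59 ± 0.20), and Gli2 from 194 to 253 CPM down to 26.3 to 62.5 CPM (-2.21 ± 0.23). Boc (-1.30 ± 0.25), Ptch1 (-1.48 ± 0.29), Smo (-1.08 ± 0.23) and Gli1 (-1.75 ± 0.28) were lower without overlap as well. Gli3, at 63.7 ± 11.9 and 66.2 ± 7.74 CPM, and Hhip, at 47.9 ± 21.6 and 34.3 ± 12.1 CPM, overlapped. Beside these 7 members, 24.3% of 15356 genes separated without overlap, 12.3% lower and 12% higher. The call rule called 9.46% of genes lower and 10.8% higher, 20.2% in all.

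In the libraries labelled cKO, Gas1 went from 196 to 339 CPM in uninjured muscle down to 19.8 to 42.1 CPM at 3 DPI (-3.12 ± 0.34) and Cdon from 269 to 407 CPM down to 19.8 to 87.7 CPM (-2.48 ± 0.37). Boc (-1.65 ± 0.34), Ptch1 (-2.25 ± 0.64) and Gli2 (-1.66 ± 0.33) also did not overlap, which makes 5 members lower without overlap. Of 14578 genes, 13.6% separated without overlap, 6.7% lower and 6.9% higher. Gli1, at 68.7 to 98.2 CPM in uninjured muscle and 32.7 to 71.9 CPM at 3 DPI, overlapped (-0.69 ± 0.36), as did Smo, Hhip and Gli3. The call rule called 4.04% of genes (1.61% lower and 2.43% higher), 589 genes, and 1316 without replicate 3 at 3 DPI, where Ptch1 was at -1.81. The 2 injury comparisons share libraries with the genotype comparisons and are not independent of them.

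Markers of MuSCs and of other cells shifted with injury. The summed MuSC markers were 758 to 1070 CPM in control libraries at 3 DPI, against 3401 to 5221 CPM before injury, and all 9 were called lower. The summed myeloid markers rose from 64.4 to 80.2 CPM before injury to 4815 to 6224 CPM at 3 DPI, and all 9 were called higher, although the sort removed CD45+ and CD11b+ cells. The summed mural markers ran from 2285 to 3303 CPM before and from 830 to 1093 CPM after injury, with 2 of 7 called lower. Notch3 alone averaged 1749 and 253 CPM of that sum, and 3 of the 7 markers lay above 0. Of 10 fibroadipogenic markers, 6 were called higher and 2 lower. In the libraries labelled cKO, the MuSC sum went from 1866 to 2825 CPM down to 357 to 572 CPM (7 of 9 called lower). The mural sum went from 1894 to 2686 CPM down to 908 to 1108 CPM (1 of 7 called lower). Notch3 averaged 1244 and 180 CPM of it, and 2 of the 7 mural markers lay above 0. The myeloid sum went from 102 to 162 CPM up to 1936 to 5552 CPM (8 of 9 called higher), or 3990 to 5552 CPM without replicate 3. Under the same label the fibroadipogenic sum rose from 1308 to 2681 CPM up to 2949 to 6042 CPM. In controls that sum overlapped (4728 to 7503 against 3810 to 5928 CPM). The summed tenocyte (tendon cell) markers rose under the cKO label from 218 to 268 CPM up to 337 to 536 CPM, and overlapped in controls. The part of these shifts in the falls of the hedgehog genes was not tested. Per 100 CPM of MuSC markers, Gas1 was the only member still lower without overlap after injury in controls (16.7 to 26.1 against 7.31 to 11.6 CPM, a log2 ratio of -1.16), Cdon, Boc, Ptch1, Gli1 and Gli2 overlapped, and Smo, Hhip and Gli3 were higher without overlap. On this scale 87.5% of all genes tested were higher and 0.176% lower without overlap, with a median log2 ratio of 2.26, and of the 9 members Gli3 alone (2.29) lay above that median. Gli3 measured 1.03 to 1.75 CPM before and 6.31 to 8.76 CPM after injury on that scale. In the libraries labelled cKO, Gas1 overlapped on that scale between 7.77 to 12.5 and 3.76 to 11.8 CPM. The log2 ratios of the members there ran from -0.516 for Gas1 to 2.50 for Gli3, and the median of all genes was 2.50.

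**Figure D3:**
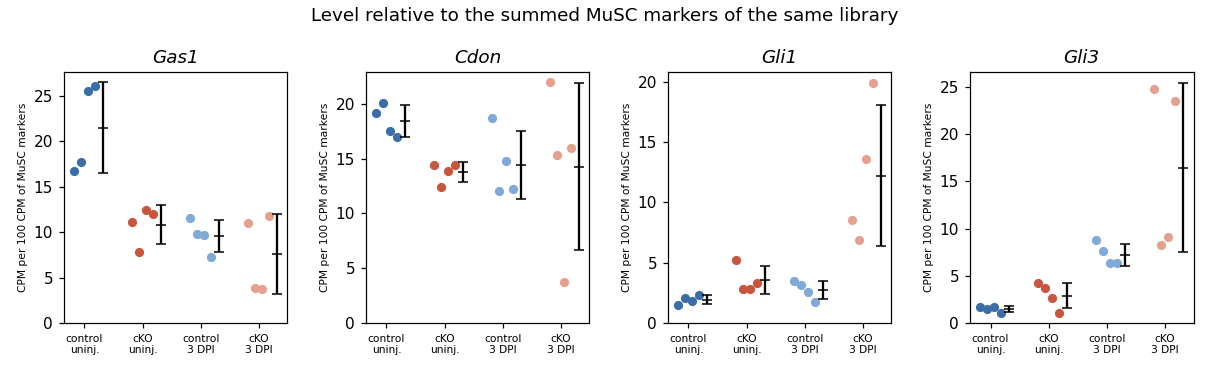
Level of Gas1, Cdon, Gli1 and Gli3 per 100 CPM of 9 summed MuSC markers in the same library (y axis), with points for libraries and bars for the mean ± SD of 4. Uninjured controls had the highest Gas1 values (16.7 to 26.1), and all libraries labelled cKO at 3 DPI lay above all other libraries for Gli1 (6.85 to 19.9).

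The makeup of the co-receptor group changed with its level. Gas1 provided 68.5 ± 6.60% of the summed TPM of Gas1, Cdon and Boc in uninjured controls and 54.1 ± 4.71% in uninjured cKO libraries, and the groups did not overlap (62.0 to 74.7% against 47.3 to 57.7%). Boc provided 5.67 ± 1.41% and 16.2 ± 2.90%, also without overlap, at a level of 53.9 ± 9.20 and 68.9 ± 7.98 TPM, and Cdon 25.9 ± 5.41% and 29.7 ± 2.06%. The summed co-receptor level was 972 ± 160 TPM in uninjured controls, 432 ± 77.8 TPM in uninjured cKO, 129 ± 19.4 TPM in controls at 3 DPI and 69.9 ± 10.6 TPM in the libraries labelled cKO at 3 DPI. In that last group Gas1 (36.9 ± 8.08%), Cdon (30.9 ± 14.2%) and Boc (32.2 ± 14.8%) had shares whose ranges overlapped, and without replicate 3 the means were 37.9 ± 9.62%, 36.4 ± 11% and 25.7 ± 8.51% (n = 3). These shares follow from the values that chose the genes and were not tested.

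Among the GLI factors, Gli2, which carries most of the activator function in many tissues, was the most abundant in uninjured controls, at 53.0 ± 3.53% of their summed TPM, ahead of Gli1 (35.2 ± 6.23%) and Gli3 (11.7 ± 2.69%). Gli3, which serves mainly as a repressor, provided 35.7 ± 4.06% in controls at 3 DPI. The Gli1 share was 31.2 ± 6.94% there and 44.9 ± 7.97% in the libraries labelled cKO, with overlapping ranges of 23.3 to 40.2% and 33.4 to 51.4%. The summed GLI level was 145 ± 13.3 TPM in uninjured controls and 166 ± 37.5 TPM in uninjured cKO libraries, with overlapping ranges. At 3 DPI it was 50.5 ± 7.36 TPM in controls (44.2 to 61.1 TPM) and 85.4 ± 25.8 TPM in the libraries labelled cKO (61.8 to 113 TPM), higher without overlap. The value of 113 TPM came from replicate 3. Libraries that share a code measured 61.1 and 48.4 TPM in controls against 65.2 and 61.8 TPM under the cKO label.

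**Figure D4:**
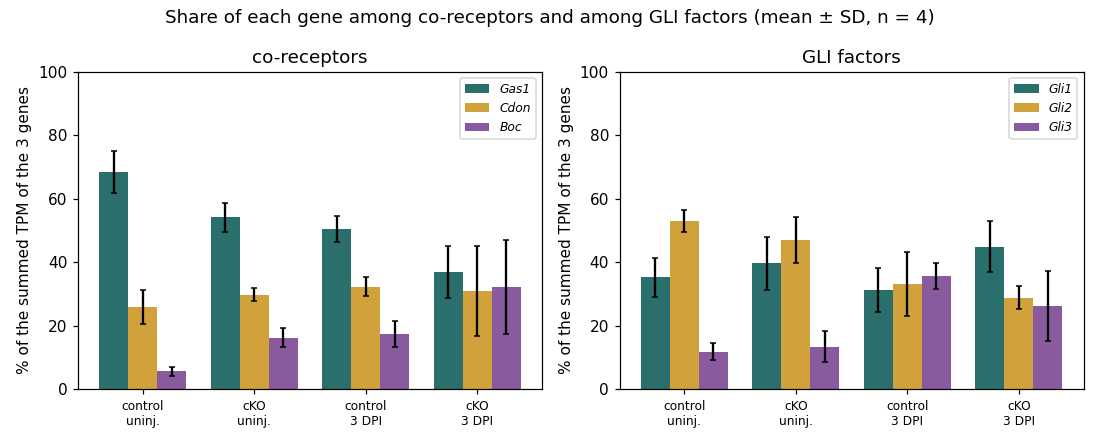
Share of each gene (y axis, percent of the summed TPM of the 3 genes, mean ± SD, n = 4) among the co-receptors (left) and the GLI factors (right) in the 4 groups. The Gas1 share was 68.5% in uninjured controls and 36.9% in the libraries labelled cKO at 3 DPI, and the Gli3 share was highest in controls at 3 DPI (35.7%).

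Over the 16 libraries, genes with a pattern most like Gas1, by the Pearson correlation of log2 CPM among 16487 genes, included Nfib (0.973), Ttc3 (0.972), Tln2 (0.971) and Ncam1 (0.971). Cdon ranked 13 (0.962), Boc 578 (0.816) and Gli2 786 (0.777), while Gli3 showed no likeness (-0.07). These correlations describe 4 groups that differ in depth and cell makeup.

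The rest of the pathway was followed through 81 other genes in 5 lists. Between uninjured genotypes 4 of 73 tested were called, all lower, which is 5.48% against 3.22% of all genes. No ligand was among them. Shh averaged 17.1 ± 7.33 CPM in uninjured controls and 17.5 ± 10.8 CPM in cKO libraries (log2 fold change 0.16, adjusted p = 0.89, edgeR), and Ihh 10.7 ± 4.48 and 12.2 ± 4.80 CPM (0.31, adjusted p = 0.807, edgeR). Dhh, at 9.92 ± 6.29 and 15.6 ± 9 CPM, was too low to be tested. All 3 ligands rested on 1 to 24.2 counts per library in uninjured muscle. At 3 DPI in the libraries labelled cKO, Dhh measured 37.4, 31.1, 135 and 11.7 CPM, against 7.78 to 18.5 CPM in controls (log2 fold change 2.06, adjusted p = 0.453, edgeR), and its highest value came from replicate 3.

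Of 32 other receptors and transducers none was called between uninjured genotypes. Sufu, which encodes the protein that holds GLI factors in check, measured 83.1 ± 16.1 CPM in controls and 49.7 ± 9.09 CPM in cKO libraries, without overlap (log2 fold change -0.63, adjusted p = 0.166, edgeR). Of 15 targets, 1 was called: Ccnd1, which encodes cyclin D1, measured 339, 281, 121 and 232 CPM in controls and 41.4, 48.8, 98.8 and 101 CPM in cKO libraries (-1.64 ± 0.28, adjusted p = 0.000464, edgeR). The Ccnd1 call was kept in 8 of 8 fits that left out a library and in 7 of 10 alternatives, and was lost with the replicate block. The median log2 fold change of the targets was 0.01, against 0.06 for all genes.

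Among 10 genes around RET, 6 were tested and 2 were called, both lower. The list did not fall as a whole: 4 of the 6 lay above 0, with a median log2 fold change of 0.40 against 0.06 for all genes. Ret, which encodes the kinase that GAS1 can bind, measured 159, 143, 123 and 182 CPM in uninjured controls and 103, 79.0, 77.3 and 47.7 CPM in cKO libraries (-0.85 ± 0.23, adjusted p = 0.0182, edgeR). Gfra1, which encodes the GDNF co-receptor related to GAS1, measured 162, 176, 133 and 151 CPM against 67.5, 67.5, 73.0 and 73.6 CPM (-1.02 ± 0.22, adjusted p = 0.00187, edgeR). Both groups separated without overlap, but the Ret call was kept in only 2 of 8 fits that left out a library (control replicate 3 or cKO replicate 1), whereas Gfra1 was called in 8 of 8. The ligand gene Gdnf averaged 34.0 ± 4.97 and 46.1 ± 13.8 CPM and was not called.

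Of 16 CDON and BOC partners, Cdh15, which encodes the muscle cadherin that binds CDON and is also 1 of the 9 MuSC markers, was called lower in uninjured cKO libraries (661, 529, 360 and 709 CPM against 126, 334, 282 and 335 CPM, log2 fold change -0.94 ± 0.23, adjusted p = 0.00866, edgeR). Its call was kept in 3 of 8 fits that left out a library and lost without control replicates 1, 2 or 4 or cKO replicates 1 or 3. Of the 4 calls, limma's robust fit kept that of Gfra1 alone, the fit over all 16 libraries that of Ccnd1 alone, and the rescaled table none. Among these partners 15 of 16 genes had a log2 fold change below 0, with a median of -0.36 against 0.06 for all genes tested.

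None of 74 listed genes tested was called between genotypes at 3 DPI, where the rule called 0% of all genes, so that this count says nothing particular to the list. Without replicate 3 of the cKO label, which held 1 count of Cdh15, Cdh15 was called lower (-1.80, adjusted p = 0.00604, edgeR).

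After injury in controls, 22 of 76 listed genes tested were called, 16 lower and 6 higher, which is 28.9% against 20.2% of all genes. Lower genes included Sufu (-1.02, adjusted p = 0.00189, edgeR), Evc (-1.25) and Evc2 (-1.53), which encode ciliary partners of SMO, Tulp3 (-1.24), Iqce (-0.97), Arrb1 (-1.10) and the glypican Gpc4 (-1.29). Ret (-1.73, adjusted p = 4.53e-08, edgeR), Gfra1 (-1.82, adjusted p = 6.11e-09), the Cdon and Boc partners Neo1 (-1.34), Cdh15 (-1.72), Cdh4 (-1.11), Ntn1 (-1.22) and Ntn4 (-1.34), and the targets Bcl2 (-1.53) and Myf5 (-2.62), the last also a MuSC marker, fell with them. Genes called higher were Arrb2 (2.65, adjusted p = 4.86e-11, edgeR), Adrbk1, which encodes the kinase GRK2 that acts on SMO (1.33), Sfrp1 (1.78), Cdk6 (1.41), Cdc42 (1.19) and Bnip2 (0.82). The Bnip2 groups overlapped, and its call was kept in only 3 of 8 fits that left out a library and in 6 of 10 alternatives. In the libraries labelled cKO, 2 of 74 were called, 2.7% against 4.04% of all genes: Myf5 (-2.63, adjusted p = 0.000347, edgeR) and Cdh15 (-2.98, adjusted p = 0.00893). The Cdh15 call was kept in 3 of 8 fits that left out a library (uninjured replicate 1 or 3 DPI replicate 2 or 3). Without replicate 3 at 3 DPI, Arrb2 (2.56) and Adrbk1 (1.44) were called as well.

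**Figure D5:**
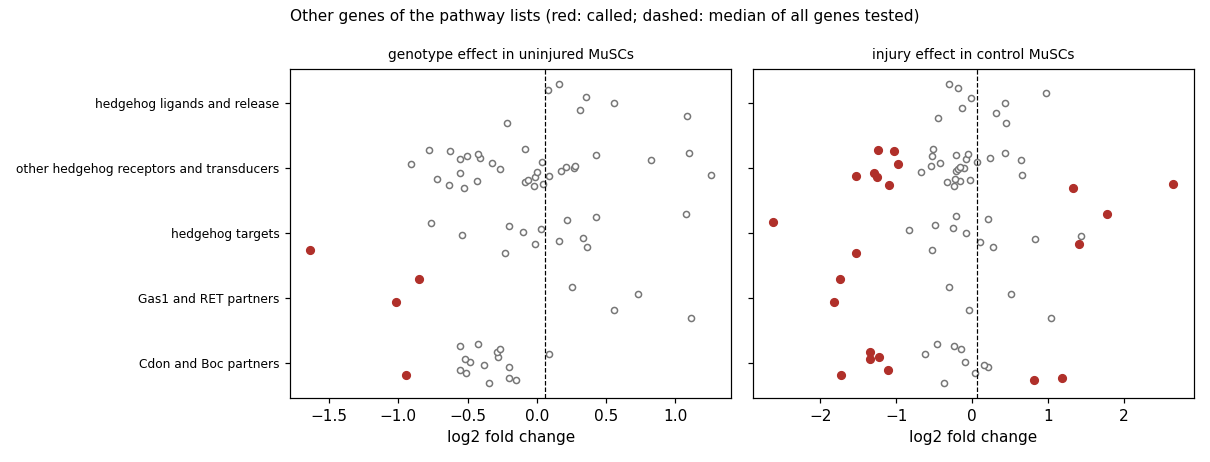
Log2 fold changes (x axis) of the other tested genes of 5 pathway lists (rows) between uninjured genotypes (left) and after injury in controls (right), red where called, with the median of all genes tested as a dashed line. The 4 called genes on the left, Ccnd1, Gfra1, Cdh15 and Ret, all lay below 0, and on the right 16 lay below and 6 above.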

How the data were processed

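The authors sequenced ribosome-depleted total RNA of sorted MuSCs with the CORALL kit and, per the labels, used Trim Galore 0.6.7, STAR 2.6.1d and Salmon 1.5.2 on GRCm38. They deposited Salmon's estimated counts per gene, not normalized, and a second table of estimated counts rescaled from abundance to each library total, from which TPM was computed here (value scaled by the column total). Whether molecular identifiers were collapsed is not given in the sources used here. Each library held 620506 to 1351130 estimated counts.

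Estimated counts were rounded. CPM levels used TMM factors over 16 libraries, and log2 CPM a prior count of 2. Each comparison of 4 against 4 libraries was fitted alone in R 4.3.3 with edgeR 4.0.16 (filterByExpr, TMM, robust quasi-likelihood test, Benjamini-Hochberg adjustment over all genes tested), and the difference between genotype effects on all 16. Alternatives used limma 3.58.1, DESeq2 1.42.0, other scalings and filters, 1 fit over all libraries, the replicate block, the label code, the rescaled table and leaving out each library. The procedure was tested on simulated counts. Replicates of a group differed by more than counting noise (lowest chi-square ratio per degree of freedom 2.97). The named genes were the 9 members, Terf2, Pax7, listed genes called in any comparison with the ligands, Sufu and a few further genes, called cell markers and, of the 5 genes most like Gas1, those reported here. Gdnf was named after its values were seen. A few items that fall under these rules are not reported here. The members, lists and tests were chosen with earlier results of these data known. Grk2 was matched as Adrbk1 through RefSeq synonyms. The floor of 3 counts covers counting error only.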

Additional observations from a re-analysis of the deposited data

Results flagged for a closer look

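In 36 sets of 4 libraries (9 genes in 4 groups), 4 held a library whose distance from the nearest other, as a share of the whole range, exceeded Dixon's critical value of 0.829, and chance gives about 1 in 20. In uninjured controls, Cdon measured 594 CPM in replicate 3, against 861 to 890 CPM in the others. Smo measured 144 CPM in replicate 1, against 102 to 103 CPM. Hhip measured 79.9 CPM in control replicate 4, against 34.2 to 41.9 CPM, and 57.3 CPM in uninjured cKO replicate 3, against 35.3 to 39.1 CPM. Without control replicate 3, the Cdon difference between uninjured genotypes was -1.30 on the log2 scale, and without control replicate 1 that of Smo was -0.69.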

How the results depend on the processing

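Of 880 member values recomputed under other settings or without a library, 878 moved by less than 1 SD between replicates. The 2 that moved came from the 3 DPI libraries that share a label code (Boc -0.69, Gli1 0.33). The SD was pooled over the 4 groups, so the margin was wide for Smo and Ptch1, which had no count in cKO 3 DPI replicate 3. Between genotypes at 3 DPI, Smo from -2.19 to -0.70 and Ptch1 from -0.99 to 0.15 counted as unmoved. A change of sign was counted only for members that met the call rule. Relative to the summed MuSC markers, a scale on which the median of all genes rose by 2.26 in controls and 2.50 in cKO after injury, values below 0 after injury turned positive for Boc (0.98), Ptch1 (0.86), Smo (1.10), Gli1 (0.51), Gli2 (0.0239) and Hhip (1.83) in controls and for Boc (0.86), Cdon (0.0526), Gli2 (0.81), Ptch1 (0.205), Smo (0.88), Gli1 (1.79), Hhip (2) and Gli3 (2.50) in cKO. Counts of members that met the call rule are given only to show the effect of the settings, since the members were chosen on these values, and support nothing. Between uninjured genotypes, 452 genes were called, against 299 with limma, 82 in 1 fit of all 16 libraries and 17 in the rescaled table, 2 members against 3 (DESeq2, Smo added), 1 (16 libraries) and 0 (rescaled table), and 4 listed genes against 2 (limma), 7 (DESeq2), 1 (16 libraries) and 0 (rescaled table). At 3 DPI, 0 genes became 28 (limma), 22 (DESeq2), 3 (16 libraries) and 1 (shared code), and 0 listed genes became 1 with limma (Foxf1). After injury in controls, 3104 genes, 7 members and 22 listed genes became 1595, 5 and 12 in the fit of 16 libraries. In cKO, 589 genes became 1020 (limma), 993 (DESeq2), 1204 (16 libraries) and 283 (rescaled table), 4 members became 5 (limma, DESeq2, 16 libraries) or 2 (rescaled table), and 2 listed genes became 6 (limma) or 1 (no filter, at least 10 counts, rescaled table). For the difference of effects, 3 genes became 123 (limma), 1 (limma-voom and rescaled table), 24 (DESeq2) and 8 (at least 10 counts). The causes were not tested.

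Replicate numbers did not pair the libraries (correlations of same-numbered deviations from -0.131 to 0.122). With the replicate block, genes called after injury in cKO fell from 589 to 364 and members from 4 to 2, genes with a difference of effects from 3 to 1, and Ccnd1 was no longer called between uninjured genotypes. Leaving out each library in turn gave 259 to 574 genes between uninjured genotypes (574 without control replicate 3), 0 to 16 at 3 DPI, 2618 to 3344 and 358 to 1316 after injury in controls and cKO, and 1 to 13 for the difference of effects, where 16, 1316 and 13 came without cKO 3 DPI replicate 3. Members called stayed at 2, 0, 7 and 0, and ran from 2 to 5 after injury in cKO. Listed genes ran from 2 to 5, 0 to 1, 21 to 23, 1 to 4 and 0 to 0. Scaling by library size alone moved the median of all genes from 0.06 to 0.24 between uninjured genotypes and the lower share of calls from 81.9% to 54.6%, and after injury in controls from 46.8% to 34.9%, with 2 and 7 members called under either scaling.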
